A study of Rattus norvegicus with 60 samples.

Results

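The genes of the endocannabinoid system covered here encode the cannabinoid receptor CB1 (Cnr1), the enzymes that break its ligands down (Faah and Mgll) and the enzymes that make 1 of these ligands (Dagla and Daglb). They were chosen by name, and every probe set that the array's annotation pairs with one of these symbols was taken. This gave 10 probe sets of 4 genes, among 31042 probe sets and 14224 gene symbols in all: 2 for Cnr1, 2 for Faah, 4 for Mgll and 2 for Daglb. Dagla was not analysed here. Of the 10, 9 passed a filter on low signal (a mean over all arrays at or above the 40th percentile, 7.68 on the log2 scale). The exception was 1375355_at of Mgll, which enters no test below.

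RNA came from 12 adult rats, 6 of a congenic NP.P line and 6 of its NP background line, which was bred for not preferring alcohol. The study is known to have moved part of chromosome 4 from the P line, bred for alcohol preference, into NP. The labels do not state this. Each rat gave 5 regions, namely striatum and accumbens, frontal cortex, hippocampus and amygdala, each on an array of its own, so that a region holds 6 congenic and 6 NP arrays. All rats of both lines were handled daily for 10 days, were killed in the same morning hour and had no alcohol or drug treatment named in the labels. The congenic group stands for 1 line, and the labels name neither the bounds of the transferred segment nor the sex of the rats. Mgll is the only one of the 4 genes on chromosome 4, where it is number 771 of 1330 protein-coding genes in the order of the GRCr8 assembly. Whether it lies in the transferred segment was not tested. Cnr1 and Faah lie on chromosome 5 and Daglb on chromosome 12.

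Endocannabinoids are lipid messengers that a neuron makes on demand from its membrane and that act backwards across the synapse. 2-arachidonoylglycerol is cut from diacylglycerol by the diacylglycerol lipases, binds CB1 on the presynaptic terminal, where the receptor acts through inhibitory G proteins and lowers transmitter release, and is then cleaved by monoacylglycerol lipase. Anandamide, the other main ligand, is hydrolysed by fatty acid amide hydrolase. In rodent brain CB1 is known for its abundance in striatal projection neurons and in the cholecystokinin interneurons of cortex and hippocampus.

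Promoters of the 5 genes were looked up by name in the RefSeq table of the GRCr8 assembly. Those of 3 genes were found and are shown, and none was chosen by its expression. Each runs from 250 bases before the start of the gene to 50 after it, 5′ to 3′ on the gene's strand. That of Mgll is chr4:122749186-122749485 (plus strand), that of Faah chr5:134735347-134735646 (minus strand) and that of Daglb chr12:16215709-16216008 (minus strand). Capitals mark the GC box, GGGCGG or CCGCCC on the other strand.
Mgll: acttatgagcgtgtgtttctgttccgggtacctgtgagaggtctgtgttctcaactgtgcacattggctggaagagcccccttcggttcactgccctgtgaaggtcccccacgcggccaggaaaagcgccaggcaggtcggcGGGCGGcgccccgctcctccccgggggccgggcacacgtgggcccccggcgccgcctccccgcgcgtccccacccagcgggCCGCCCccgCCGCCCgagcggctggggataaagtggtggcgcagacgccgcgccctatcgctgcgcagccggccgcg
Faah: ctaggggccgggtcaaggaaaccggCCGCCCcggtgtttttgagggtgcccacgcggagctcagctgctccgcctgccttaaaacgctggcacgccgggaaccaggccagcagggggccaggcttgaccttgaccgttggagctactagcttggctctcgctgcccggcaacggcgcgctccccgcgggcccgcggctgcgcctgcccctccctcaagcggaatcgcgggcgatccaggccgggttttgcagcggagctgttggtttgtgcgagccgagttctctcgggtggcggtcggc
Daglb: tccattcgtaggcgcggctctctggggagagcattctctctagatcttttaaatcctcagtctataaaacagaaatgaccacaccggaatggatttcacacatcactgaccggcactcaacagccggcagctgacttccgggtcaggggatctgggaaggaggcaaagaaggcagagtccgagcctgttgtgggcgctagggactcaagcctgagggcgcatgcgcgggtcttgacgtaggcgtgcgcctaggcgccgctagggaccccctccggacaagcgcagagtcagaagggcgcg
The Mgll window holds 3 GC boxes and the Faah window 1, whereas the Daglb window holds none and has a TATAAA at position -188 from the start. GC content was 72.33% for Mgll, 69.67% for Faah and 59% for Daglb, against a median of 51.67% over 33469 promoters of the same length. Of these, 33.06% hold GGGCGG on either strand, 37.49% CCAAT, which Mgll holds once, 14.22% TATAAA and 1.829% TGACGTCA, which none of the 3 holds. These matches overlap no other motif searched and are descriptions of letters, not of sites in use.

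The deposited values are log2 expression values between 4.58 and 16.01, with array medians between 8.23 and 8.35. The precision is limited by the number of animals. A probe set's value can be compared between arrays but not with another probe set's. Markers fit the labels for most regions: the summed linear signal of 6 medium spiny neuron markers, in units of 1000, had a median of 44.1 in striatum and 27.7 in accumbens, against 14.3 in amygdala, 4.58 in frontal cortex and 3.90 in hippocampus. The 4 cortical excitatory markers measured, however, summed to a median of 16.7 in striatum, against 17.3 in frontal cortex and 7.54 to 7.91 elsewhere. Slc17a7 gave the largest part of the striatal sum (mean log2 level 13.13 in striatum and 12.08 in frontal cortex), while Lamp5, Fezf2 and Cux2 were highest in frontal cortex. Hippocampal neuron markers had a median sum of 6.12 in hippocampus, against 1.92 to 2.57 elsewhere, and choroid plexus markers 32.0 in hippocampus, against 0.530 to 2.41 elsewhere. The 3 amygdala markers measured, of 5 listed, summed to a median of 4.83 in amygdala, against 2.02 to 2.93 elsewhere. Only Nr2f2 was highest in amygdala (mean log2 level 11.39). Tshz1 (10.48 in accumbens, 10.20 in amygdala) and Prkcd (9.50 and 9.39) were highest in accumbens. By their correlation with the region named in the label, 7 of 60 arrays stood apart: accumbens of congenic animal 9 and NP animal 8, amygdala of congenic animal 3 and NP animal 6, and hippocampus of congenic animal 3 and NP animals 8 and 11. Of these, 4 resembled another region most: hippocampus for accumbens NP 8 and amygdala congenic 3, accumbens for hippocampus NP 8, and amygdala for hippocampus congenic 3. The labels were kept, and the main counts are also given without these 7 arrays. As the arrays were picked for their poor match to the labelled region, leaving them out favours differences among regions by construction. Region calls made without them are therefore no independent support.

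All 4 genes differed among the regions. Accumbens had the lowest level of each leading probe set, that is the one of each gene with the highest mean, while the highest level lay in striatum and hippocampus for Cnr1, in hippocampus, amygdala and frontal cortex for Faah, and in frontal cortex for Mgll and Daglb. By limma's F test over the 5 regions, with the animal as a block, 9 of 9 probe sets differed. So did 93.3% of all 18625 probe sets tested, and 97.1% without the 7 arrays, so that a difference among regions as such is nothing particular to these genes. Region accounted for 40.0 to 88.4% of the variance of the 9 probe sets, and line for 0.00322 to 1.57%. Leaving out the 7 arrays gave 69.1 to 95.5% for region and 0.00141 to 1.82% for line. The way these arrays were picked favours a larger share for region. In whole tissue, fewer cells of a type and less RNA per cell cannot be told apart.

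**Figure D1:**
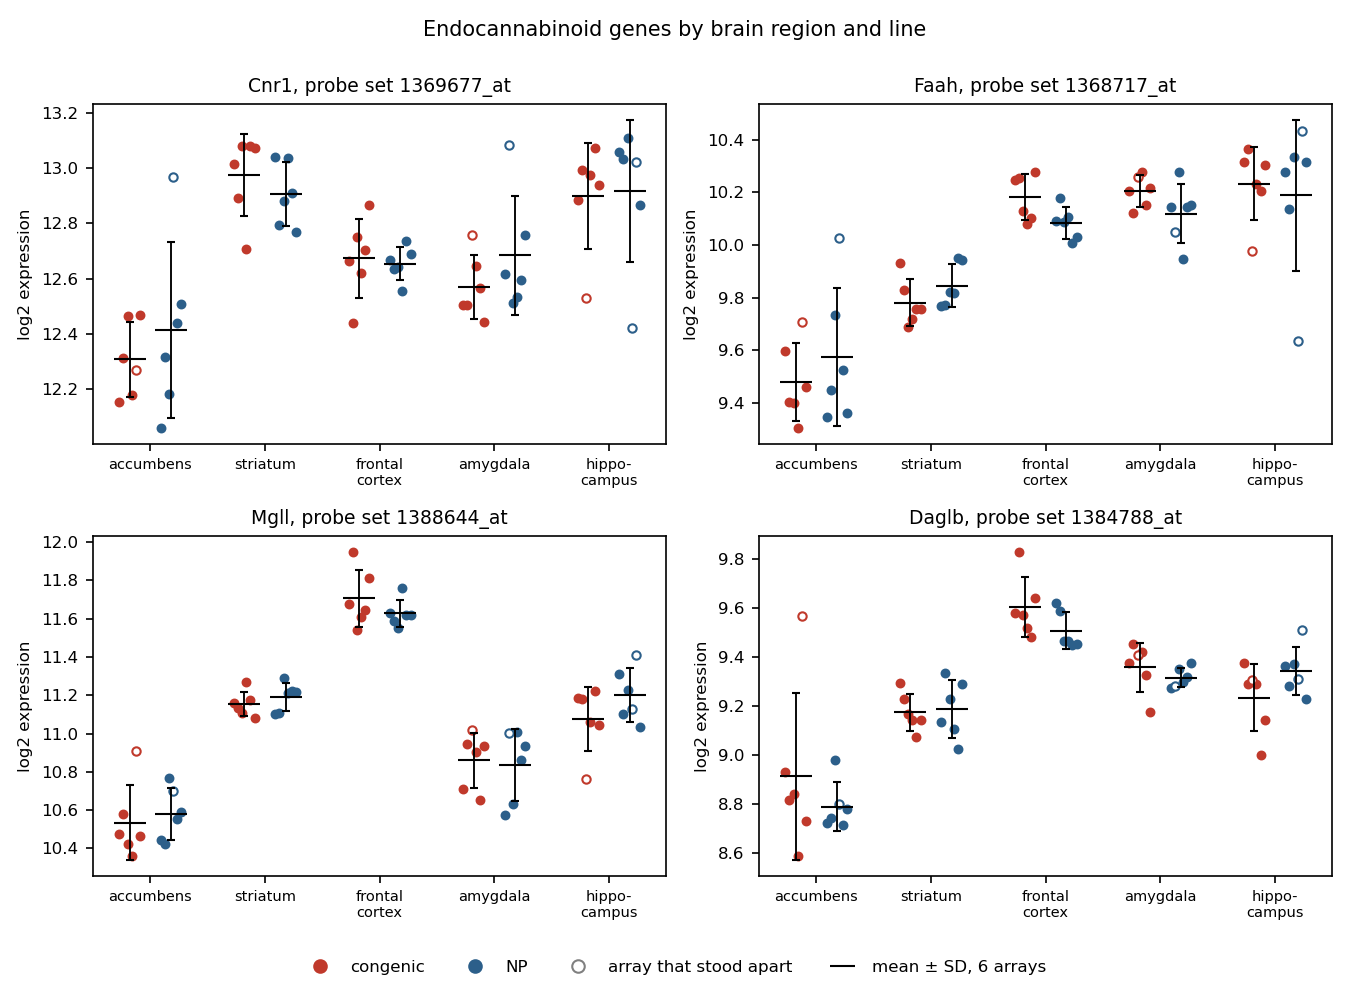
Log2 expression (y axis) of the leading probe set of each gene in 5 brain regions (x axis), congenic rats left of NP rats. Points are arrays, hollow where the array stood apart, and bars are mean ± SD of 6 arrays. Within each region the lines overlap, while Mgll and Daglb are highest in frontal cortex and all 4 genes lowest in accumbens.

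Cnr1, the receptor, was highest in striatum and hippocampus. Its leading probe set, 1369677_at, had its lowest, median and highest log2 values over 12 arrays at 12.71, 12.96 and 13.08 in striatum and at 12.42, 12.98 and 13.11 in hippocampus. It lay at 12.44, 12.67 and 12.87 in frontal cortex, 12.44, 12.58 and 13.09 in amygdala and 12.06, 12.32 and 12.97 in accumbens. The striatal arrays thus overlapped the hippocampal ones fully, and the highest accumbens value came from the array labelled NP 8 that resembled hippocampus. Against the mean of the other 4 regions, Cnr1 was higher by 0.30 ± 0.06 in striatum (log2, SE, 1.23-fold, limma adjusted p = 3.12e-05) and by 0.26 ± 0.06 in hippocampus (1.2-fold, adjusted p = 3.76e-04). It was lower by 0.42 in accumbens (log2 difference -0.42 ± 0.06, adjusted p = 7.43e-08). Amygdala (-0.09 ± 0.06, adjusted p = 0.220) and frontal cortex (-0.04 ± 0.06, adjusted p = 0.544) were not called. Without the 7 arrays amygdala was lower as well (-0.15 ± 0.04, adjusted p = 0.00126) and hippocampus moved up to 0.39 ± 0.04, with 9 arrays between 12.87 and 13.11.

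The second Cnr1 probe set, 1387674_at, kept striatum on top, at 9.23, 9.47 and 9.72 over its 12 arrays, with 8.11, 9.34 and 9.60 in hippocampus. Frontal cortex (8.53, 8.92 and 9.12), amygdala (8.70, 8.99 and 9.61) and accumbens (7.76, 8.95 and 9.12) lay below. Its 2 lowest values of all were the accumbens array of congenic animal 9 and the hippocampus array of NP animal 11, both among the 7. Striatum was higher by 0.48 ± 0.10 (1.4-fold, adjusted p = 1.67e-05), whereas hippocampus was called only without the 7 arrays (0.34 ± 0.06, adjusted p = 1.80e-06) or without animal 11 (0.24, adjusted p = 0.0218). In frontal cortex this probe set, unlike the leading one, was lower (-0.24 ± 0.10, adjusted p = 0.0252), a call that ended without animal 2 (adjusted p = 0.0690). The difference between the probe sets was not tested.

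Faah, which ends the action of anandamide, was low in both striatal regions and higher in the other 3. Probe set 1368717_at had 9.63, 10.29 and 10.43 as its lowest, median and highest values in hippocampus, 9.95, 10.15 and 10.28 in amygdala and 10.01, 10.11 and 10.28 in frontal cortex. In striatum it had 9.69, 9.80 and 9.95 and in accumbens 9.30, 9.46 and 10.03, so that no striatal array reached the lowest of frontal cortex. The highest accumbens value and the lowest hippocampal value both came from arrays of NP animal 8 that stood apart. Against the other regions Faah was lower by 0.55 in accumbens (log2 difference -0.55 ± 0.05, 0.682 of the level elsewhere, adjusted p = 4.10e-13) and by 0.19 in striatum (-0.19 ± 0.05, adjusted p = 6.63e-04). Under quantile normalization the striatal difference was -0.10 and was not called (adjusted p = 0.0838). It was higher by 0.30 ± 0.05 in hippocampus, 0.24 ± 0.05 in amygdala and 0.20 ± 0.05 in frontal cortex (adjusted p at most 4.51e-04). Probe set 1384341_at had the same order of regions. It was called lower in accumbens (-0.33 ± 0.05) and striatum (-0.23 ± 0.05) and higher in hippocampus (0.33 ± 0.05). Its call in amygdala (0.13 ± 0.05, adjusted p = 0.0491) ended when any one of animals 1, 3, 4, 5, 6, 7, 11 or 12 was left out (adjusted p 0.0549 to 0.150) and under quantile normalization (adjusted p = 0.181), but was kept without the 7 arrays (0.11 ± 0.04, adjusted p = 0.0110). Frontal cortex was called only without the 7 arrays (0.11 ± 0.04, adjusted p = 0.00701) or without animal 8 (0.11, adjusted p = 0.0476). Both probe sets are annotated with 2 gene IDs that carry the symbol Faah, so that transcripts of a close copy, if there is one, would not be told apart.

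Mgll, which cleaves 2-arachidonoylglycerol in the terminal, had the widest spread between regions of the leading probe sets, with frontal cortex on top. Probe set 1388644_at lay at 11.54, 11.63 and 11.95 in frontal cortex, and no array of another region reached the lowest of these 12. It lay at 11.08, 11.17 and 11.29 in striatum, 10.76, 11.16 and 11.41 in hippocampus, 10.58, 10.92 and 11.02 in amygdala and 10.36, 10.51 and 10.91 in accumbens. Frontal cortex was higher than the other regions by 0.74 ± 0.05 on the log2 scale (1.67-fold, adjusted p = 5.77e-19). Accumbens was lower (-0.65 ± 0.05, 0.637 of the level elsewhere, adjusted p = 1.30e-16), as was amygdala (-0.29 ± 0.05, adjusted p = 1.18e-06). The smaller difference in striatum (0.12 ± 0.05, adjusted p = 0.0175) was lost without animal 4 (adjusted p = 0.0509) but had an adjusted p of 8.13e-04 without the 7 arrays, and hippocampus was called higher only without the 7 arrays (0.12 ± 0.04, adjusted p = 0.0128) or without animal 3 (0.11, adjusted p = 0.0386).

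The other Mgll probe sets had frontal cortex on top and accumbens at the bottom too. In frontal cortex 1375247_at had 9.82, 9.93 and 10.08, against 9.10, 9.53 and 9.66 in hippocampus, 9.38, 9.50 and 9.60 in striatum, 8.96, 9.10 and 9.54 in amygdala and 7.70, 8.86 and 9.05 in accumbens. Probe set 1370831_at had 9.31, 10.30 and 10.47 in frontal cortex, against 9.76, 10.01 and 10.17, 9.79, 9.96 and 10.11, 8.91, 9.63 and 10.00 and 8.49, 9.24 and 9.50 in the same order. Its step from frontal cortex to hippocampus was not called (0.18 ± 0.10, limma adjusted p = 0.147), nor without the 7 arrays (0.13 ± 0.11, adjusted p = 0.316). All 3 tested probe sets were higher in frontal cortex (0.74, 0.50 and 0.71 for 1388644_at, 1370831_at and 1375247_at) and lower in accumbens (-0.65, -0.75 and -0.73) and amygdala (-0.29, -0.26 and -0.28). In hippocampus 1370831_at (0.28 ± 0.08, adjusted p = 0.00191) and 1375247_at (0.15 ± 0.06, adjusted p = 0.0292) were higher. The call of 1375247_at ended without any one of animals 1, 2, 5, 7 or 12 (adjusted p 0.0554 to 0.0733) and under quantile normalization (0.11, adjusted p = 0.126), but was kept without the 7 arrays (0.21 ± 0.03, adjusted p = 1.72e-07). In striatum both were higher (0.23 ± 0.08 and 0.15 ± 0.06), and that of 1375247_at was lost without animal 11 (adjusted p = 0.0529) but kept without the 7 arrays (0.13 ± 0.03, adjusted p = 8.91e-05). The dim probe set 1375355_at had medians between 7.08 in accumbens and 7.64 in frontal cortex.

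Daglb, a diacylglycerol lipase, followed Mgll in being highest in frontal cortex. The 12 frontal cortex values of 1384788_at ran through 9.45, 9.55 and 9.83, those of amygdala through 9.17, 9.34 and 9.45 and those of hippocampus through 9.00, 9.30 and 9.51. Striatum had 9.03, 9.16 and 9.34 and accumbens 8.59, 8.79 and 9.57. The accumbens maximum, the array of congenic animal 9, stood apart, and the next accumbens array had 8.98. Frontal cortex was higher than the other regions by 0.39 ± 0.05 (1.31-fold, adjusted p = 1.92e-09) and accumbens lower (-0.49 ± 0.05, adjusted p = 5.33e-12). The call in amygdala (0.12 ± 0.05, adjusted p = 0.0406) ended when any animal but 6, 9 or 10 was left out (adjusted p 0.0523 to 0.0978) and under quantile normalization (adjusted p = 0.130). It was kept without the 7 arrays (0.16 ± 0.03, adjusted p = 6.58e-05). Hippocampus (0.06 ± 0.05, adjusted p = 0.316) was called without animal 9 (0.10, adjusted p = 0.00996) but not without the 7 arrays (0.03 ± 0.03, adjusted p = 0.378). With 1382440_at, frontal cortex was again higher (0.45 ± 0.05, 1.37-fold) and accumbens lower (-0.42 ± 0.05), and striatum was called higher only without the 7 arrays (0.08 ± 0.04, adjusted p = 0.0377).

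**Figure D2:**
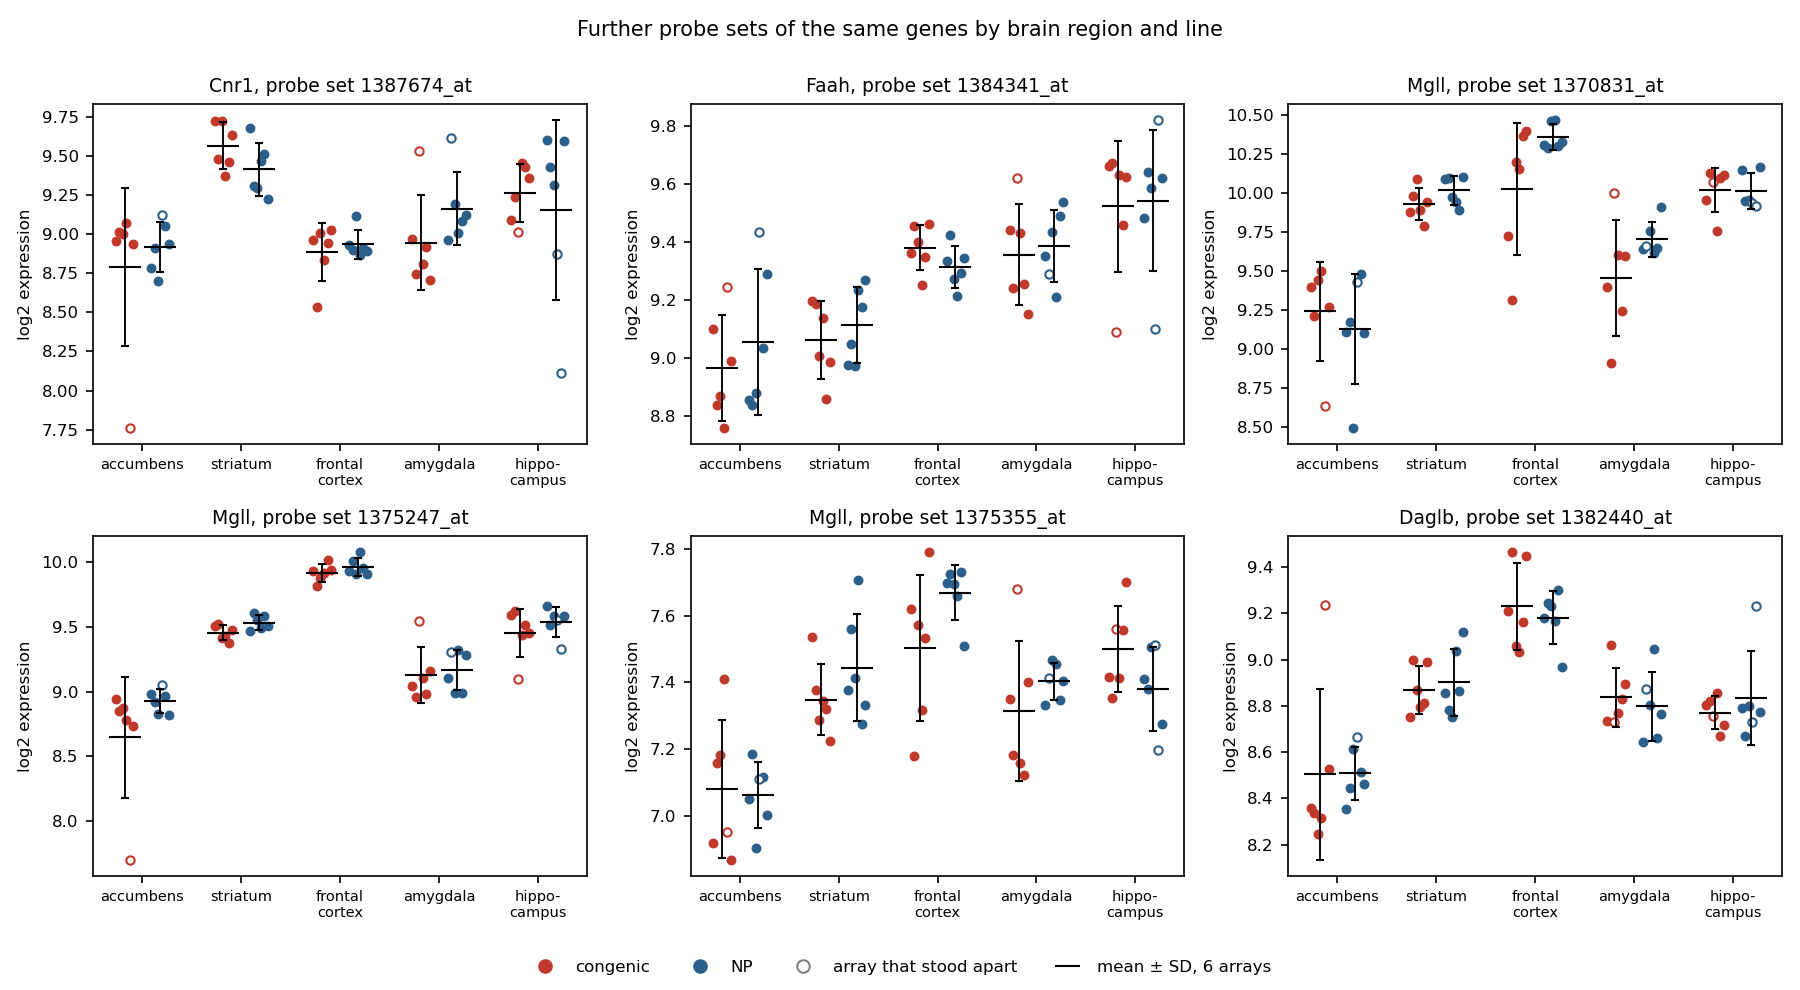
Log2 expression (y axis) of the other 6 probe sets by region (x axis), congenic rats left of NP rats, with points for arrays, hollow where the array stood apart, and bars for mean ± SD of 6 arrays. The 3 further Mgll probe sets and that of Daglb peak in frontal cortex, the second Cnr1 probe set in striatum and the second Faah probe set in hippocampus.

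Counted by region, with the share of all 18625 probe sets called in that direction beside it, the members were lower in accumbens in 9 of 9 cases, against 38.9% of all probe sets (23.5% were higher). Their median difference there was -0.49, against -0.05 over all probe sets. In frontal cortex 6 of 9 were higher and 1 lower, against 35.6% and 25.7%, with a median of 0.39 against 0.03. Hippocampus had 5 higher and 0 lower, against 33.1% and 21.2%, and striatum 5 higher and 2 lower, against 26.3% and 43.3%. Amygdala was even, with 3 higher and 3 lower, against 29.1% and 18.6%. In hippocampus, 0 of 9 were lower in the other settings tried too, and 0 had a negative difference with an unadjusted p under 0.05. The probe sets of a gene are annotated with the same symbol, so these are 4 genes and not 9 independent cases.

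Without the 7 arrays the members were lower in accumbens in 9 of 9 cases again, against 44.8% of all probe sets (25.6% higher). Frontal cortex then had 7 higher and 1 lower (41.8% and 30.6%), hippocampus 7 and 0 (38.4% and 26.4%), striatum 6 and 2 (29.7% and 48.4%) and amygdala 3 and 5 (39.2% and 23.7%). No call changed sign. Of the 4 cortical excitatory markers, 3 were highest in frontal cortex, as Mgll and Daglb were. Lamp5 had a mean log2 level of 13.34 in frontal cortex and 12.57 in striatum, Fezf2 10.07 in frontal cortex and 9.41 in striatum, and Cux2 9.98 in frontal cortex and 9.39 in striatum. The exception, Slc17a7, was highest in striatum, and the lowest, median and highest sums of the 4 were 14.4, 17.3 and 18.1 in frontal cortex and 14.4, 16.7 and 18.9 in striatum. Interneuron markers (6 of 6 measured) summed to 39.1, 44.2 and 46.2 in frontal cortex, against medians of 26.9 to 33.2 elsewhere. Cck gave the largest part of this sum (mean log2 level 14.45 in frontal cortex), and Vip and Pvalb were highest there too, whereas Gad1 (13.06) and Gad2 (8.93) were at their lowest of the 5 regions. Oligodendrocyte markers (4 of 5 measured) summed to 36.6, 63.1 and 71.6 in accumbens, against medians of 69.8 in striatum, 66.9 in hippocampus, 54.8 in frontal cortex and 53.9 in amygdala, so that accumbens was not their low region. Endothelial markers (4 of 4 measured) had a median sum of 5.01 in frontal cortex, against 3.73 to 4.22 elsewhere, so they too were highest there. Astrocyte markers had 35.3 in frontal cortex and 35.5 to 47.4 elsewhere, and microglia markers 3.97 and 3.75 to 4.85. The part of these cell types in the results was not tested.

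**Figure D3:**
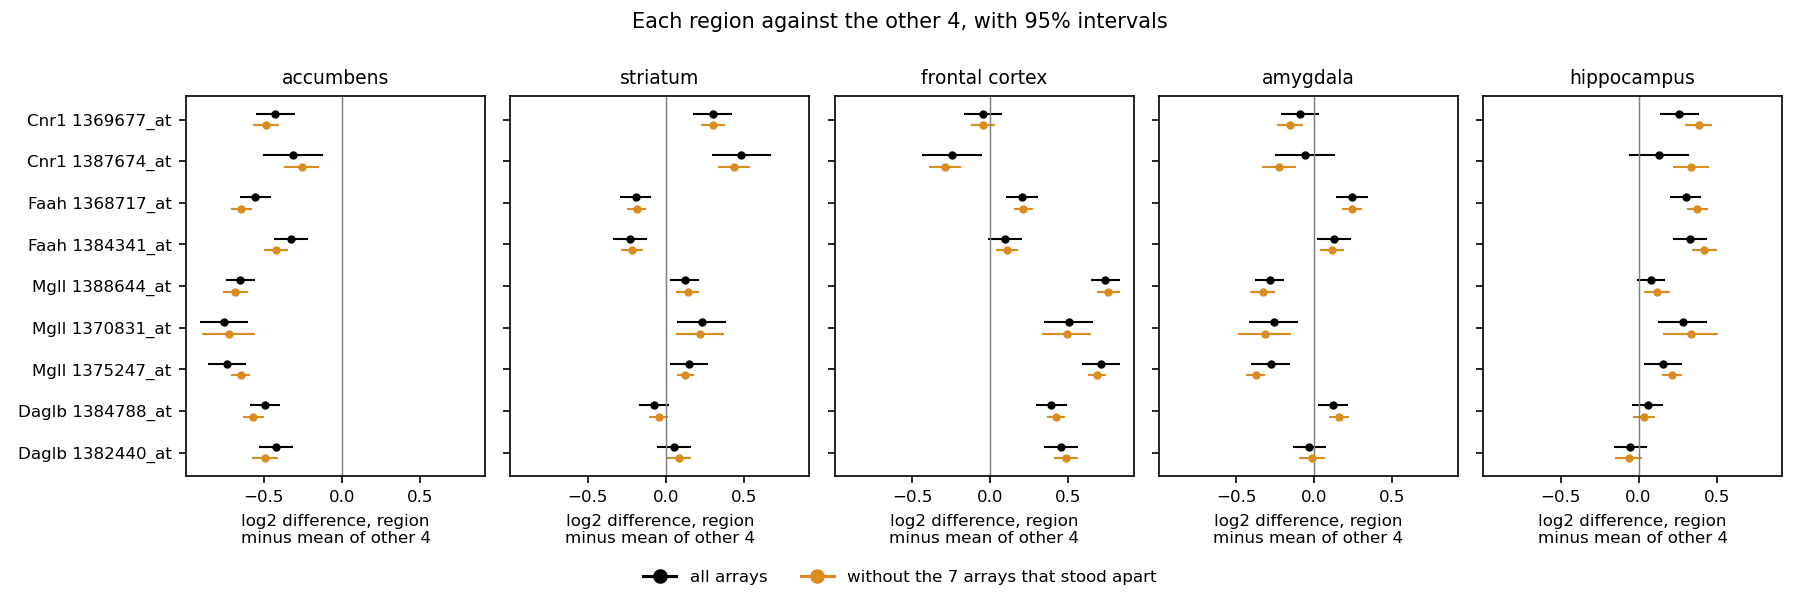
Difference of each region from the mean of the other 4 regions (x axis, log2, with 95% intervals) for the 9 probe sets tested (rows), with all arrays and without the 7 arrays that stood apart. All 9 intervals in accumbens lie below 0, and those of Mgll and Daglb in frontal cortex lie above 0.

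Not all neighbours in the order of the regions were called as different. The order was taken from the same means, so each step with all arrays is positive by construction. The test sets a mean difference against its standard error, and the arrays of a called pair can overlap. For the 4 leading probe sets 9 of 16 neighbouring pairs were called (adjusted over all probe sets within each pair of regions), and 10 without the 7 arrays. For Cnr1, striatum and hippocampus did not differ by the test (0.03, 95% interval -0.12 to 0.19, adjusted p = 0.733, with 68.6% of all probe sets called for this pair), nor did frontal cortex and amygdala (-0.12 to 0.19, adjusted p = 0.725, 45.4%). Hippocampus exceeded frontal cortex by 0.24 ± 0.08 (43.5%), and amygdala exceeded accumbens by 0.27 ± 0.08 (58.9%). With the 7 arrays left out, hippocampus stood above striatum, by 0.07 ± 0.05 and still not called (adjusted p = 0.219).

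For Faah, hippocampus, amygdala and frontal cortex formed the upper group, with intervals of -0.08 to 0.18 and -0.10 to 0.16 for the steps between them (25.7% of all probe sets were called between hippocampus and amygdala). Frontal cortex exceeded striatum by 0.32 ± 0.06 (69.7%) and striatum exceeded accumbens by 0.29 ± 0.06 (55.5%). Leaving out the 7 arrays, the step between hippocampus and amygdala was called (0.11 ± 0.04, adjusted p = 0.0345). For Mgll the step between striatum and hippocampus alone was not called (-0.08 to 0.15), and frontal cortex exceeded striatum by 0.49 ± 0.06 (1.41-fold). For Daglb, frontal cortex exceeded amygdala by 0.22 ± 0.06 and striatum exceeded accumbens by 0.33 ± 0.06, while the step between amygdala and hippocampus (-0.08 to 0.17, adjusted p = 0.632) and that between hippocampus and striatum (-0.02 to 0.23, adjusted p = 0.113) were not called.

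Across the 60 arrays, which share 12 animals and 5 regions and so are not independent, the leading probe sets of Mgll and Daglb correlated at 0.77 (Pearson, log2 values) and those of Faah and Daglb at 0.74. Cnr1 followed the enzymes less, at 0.48 with Faah, 0.44 with Mgll and 0.26 with Daglb. Probe sets of the same gene correlated at 0.64 for Cnr1, 0.86 for Faah, 0.83 for Daglb and 0.67 to 0.84 for the 3 of Mgll. By the same measure the genes most like Cnr1 were Lxn, a carboxypeptidase inhibitor (0.82), Zbtb18, a transcriptional repressor (0.80), and Wasf1, an actin regulator (0.80). Closest to Faah were C5h1orf216 (0.93), Cds1, which makes CDP-diacylglycerol (0.91), and Rhof (0.91). Lynx1, a modulator of nicotinic receptors (0.93), Gls2, a glutaminase (0.92), and Aldh3b1, an aldehyde dehydrogenase (0.92), came closest to Mgll. For Daglb they were Klhdc3 (0.91), Ttc7b (0.89) and Twf2, an actin-binding protein (0.89). These ranks moved when the 7 arrays were left out. For Cnr1 this put Wasf1 at rank 2 (0.87), Lxn at rank 9 (0.82) and Zbtb18 at rank 10 (0.82). For Faah it put Rhof at rank 1 (0.94), C5h1orf216 at rank 2 (0.93) and Cds1 at rank 7 (0.92), and for Mgll Aldh3b1 at rank 3 (0.95), Lynx1 at rank 4 (0.94) and Gls2 at rank 9 (0.93). For Daglb it put Klhdc3 at rank 5 (0.91), Ttc7b at rank 6 (0.91) and Twf2 at rank 16 (0.89).

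The wider pathway was taken as a list of 33 further genes, of which 23 passed the filter, 4 were too dim (Cnr2, Trpv1, Ppara and Ptpn22) and 6 were not analysed here. In accumbens 18 of the 23 were lower and 2 higher (over all probe sets 38.9% and 23.5%), with a median difference of -0.29, against -0.05 over all probe sets. Frontal cortex had 12 higher and 4 lower (35.6% and 25.7%) and striatum 10 and 6 (26.3% and 43.3%). Amygdala had 8 and 5 (29.1% and 18.6%) and hippocampus 7 and 8 (33.1% and 21.2%). With 53 arrays accumbens had 17 lower and 1 higher (44.8% and 25.6%), and hippocampus 11 higher and 8 lower (38.4% and 26.4%).

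Plcb4, a phospholipase C that yields diacylglycerol, was higher by 1.55 ± 0.09 in frontal cortex (2.92-fold, adjusted p = 5.41e-20) and lower in hippocampus (-0.88 ± 0.09) and amygdala (-0.43 ± 0.09). Inpp5d, an inositol phosphatase, was higher in frontal cortex (1.19 ± 0.05, 2.28-fold) and lower in amygdala (-0.65 ± 0.05). Pla2g4e, which makes the precursor of anandamide, was lower in hippocampus (-0.75 ± 0.08). The receptor Grm5, whose signal drives 2-arachidonoylglycerol synthesis, was higher in striatum (0.70 ± 0.13, 1.62-fold) and lower in frontal cortex (-0.44 ± 0.13). Chrm3, a muscarinic receptor, was lower in accumbens (-0.50 ± 0.07) and amygdala (-0.33 ± 0.07), and Abhd4, another enzyme of the anandamide route, was higher in amygdala (0.19 ± 0.04).

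Among the G proteins of CB1, Gnao1 was higher in striatum by 0.99 ± 0.09 (1.98-fold) and lower in accumbens (-0.71 ± 0.09), and Gnai2 was higher in striatum (0.55 ± 0.04) and lower in frontal cortex (-0.26 ± 0.04). Of the breakdown genes, Ptgs2, the cyclooxygenase that also oxidises endocannabinoids, was lower in accumbens (-1.02 ± 0.11, 0.493 of the level elsewhere) and higher in frontal cortex (0.83 ± 0.11) and hippocampus (0.41 ± 0.11). Naaa, an acid amidase, was higher in accumbens (0.14 ± 0.05) and lower in striatum (-0.27 ± 0.05). The fatty acid-binding proteins, which carry anandamide to its hydrolase, went different ways. Fabp7 was higher in hippocampus (0.63 ± 0.08), amygdala (0.21 ± 0.08) and accumbens (0.23 ± 0.08) and lower in frontal cortex (-0.81 ± 0.08) and striatum (-0.25 ± 0.08). Fabp5 was higher in hippocampus (0.38 ± 0.05) and amygdala (0.22 ± 0.05) and lower in striatum (-0.32 ± 0.05). Fabp3 was lower in hippocampus (-0.54 ± 0.08). All differences in this and the preceding paragraph had a limma adjusted p under 0.05 over all probe sets.

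**Figure D4:**
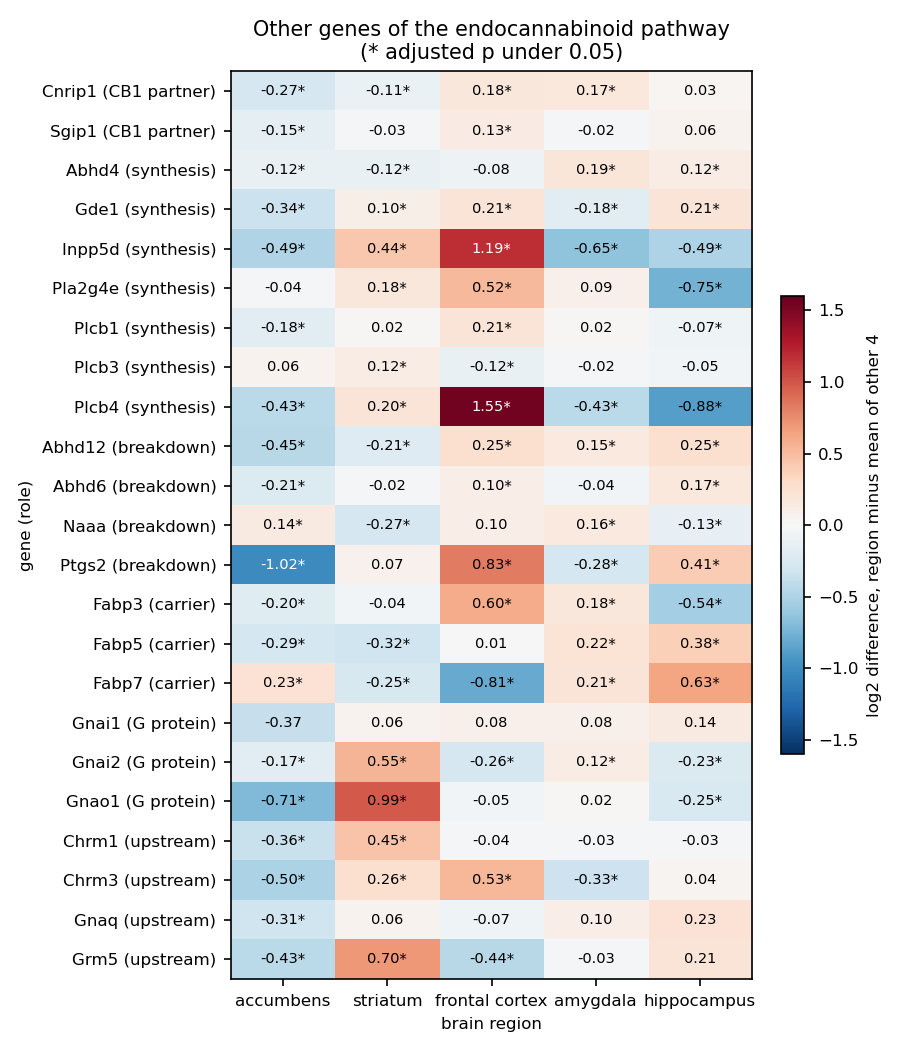
Log2 difference of each region (x axis) from the mean of the other 4 for the 23 further pathway genes (rows, with their role), coloured from blue (lower) to red (higher), with an asterisk at an adjusted p under 0.05. In accumbens 18 of the 23 genes are lower, and the strongest red is Plcb4 in frontal cortex at 1.55.

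The study's own question, which genes differ between the congenic and NP lines, was put to the same probe sets. Of the 9, 0 were called between the lines, in the mean over regions or in any region, by limma with all arrays or without the 7. Over all probe sets the shares called were small too, at 0.123% for the mean over regions, 0.0644% in striatum, 0.00537% in accumbens, 0.00537% in hippocampus, 0.0537% in frontal cortex and 0.0322% in amygdala. Leaving out the 7 arrays gave 0.156%, 0.043% in accumbens, 0.0966% in amygdala and 0.0376% in hippocampus. Of the 54 comparisons of members (9 probe sets, 5 regions and their mean), 2 had an unadjusted p under 0.05 by limma and 3 by an exact permutation test of 6 against 6 animals (2-sided, smallest possible p 0.00216). None of the 24 on the leading probe sets did by the exact test. Of all 18625 probe sets, between 366 (accumbens) and 1188 (frontal cortex) had an unadjusted p under 0.05 by limma in a single comparison. Without the 7 arrays, limma gave such a p to 2 of 9 members in amygdala (1319 of all 18625) and 1 in accumbens (1221). It did so for 1 in the mean over regions (929) and 0 in hippocampus (1448). The exact test was not run over all probe sets. The lowest adjusted p of the 54 was 0.764, and congenic and NP values overlapped in all 54. Overlap was not counted over all probe sets, so it shows nothing particular to these genes.

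For the mean over the 5 regions, Cnr1 (1369677_at) was 12.69 ± 0.06 in congenic and 12.72 ± 0.04 in NP rats (SD, n = 6 animals each), and Faah (1368717_at) was 9.98 ± 0.06 in congenic and 9.96 ± 0.06 in NP rats. Mgll (1388644_at) had 11.07 ± 0.07 in congenic and 11.09 ± 0.06 in NP rats. Daglb (1384788_at) had 9.26 ± 0.07 in congenic and 9.23 ± 0.03 in NP rats. The differences, congenic minus NP, were -0.03 ± 0.03, 0.01 ± 0.03, -0.02 ± 0.03 and 0.03 ± 0.03 for these genes in that order (log2, SE). The 4 intervals together span -0.10 to 0.09, or 0.936-fold to 1.07-fold, so that larger mean differences of these probe sets lie outside them. Within single regions the intervals were wider, such as -0.39 to 0.18 for Cnr1 in accumbens and -0.08 to 0.22 in striatum.

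Mgll, on chromosome 4, had the lowest unadjusted p, by its probe set 1375247_at. The 6 congenic animals' means over regions lay between 9.12 and 9.40 and the 6 NP means between 9.36 and 9.50. All 6 congenic means were below the NP median, and the congenic mean was lower in 5 of 5 regions. As the probe set was picked by its p, these counts restate the same values and add no support. The regions share the same animals, and neither count was taken over all probe sets. The difference was -0.11 ± 0.04 (exact permutation test, p = 0.0130, limma adjusted p = 0.911), and without the 7 arrays -0.08 ± 0.03 (adjusted p = 0.834), so that it failed the correction over all probe sets. In striatum, where no array stood apart, its congenic values were 9.38, 9.45 and 9.52 and its NP values 9.46, 9.53 and 9.60 (lowest, median and highest, difference -0.08 ± 0.04, adjusted p = 0.988). The leading Mgll probe set did not share this, at -0.02 ± 0.03 and lower in 3 of 5 regions. In accumbens the larger difference of 1375247_at (-0.28 ± 0.18) rested on congenic animal 9, without which it was -0.09 (adjusted p = 0.784).

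Another Mgll probe set, 1370831_at, was uneven among congenic rats. In frontal cortex congenic animals 2 and 1 had 9.31 and 9.73 and the other 4 congenic animals 10.15 to 10.40, while the NP animals had 10.29, 10.32 and 10.47. The SD was 0.42 in congenic and 0.08 in NP rats, and the difference -0.33 ± 0.15 (limma adjusted p = 0.764). In amygdala it was -0.25 ± 0.14 (adjusted p = 0.905). Leaving out the arrays that stood apart made it -0.36 ± 0.12 in amygdala (5 congenic and 5 NP arrays), still not called (limma adjusted p = 0.378). In accumbens the sign was the opposite, 0.11 ± 0.18 with all arrays and 0.29 ± 0.14 without those that stood apart (adjusted p = 0.757).

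The receptor showed no called difference between the lines. In striatum the second Cnr1 probe set had congenic values of 9.37, 9.55 and 9.72 and NP values of 9.23, 9.39 and 9.68 (difference 0.15 ± 0.08, adjusted p = 0.988). In amygdala its difference was -0.22 ± 0.14, and without the arrays that stood apart -0.24 ± 0.06 with the lowest adjusted p of any member, 0.236. The leading Cnr1 probe set had -0.11 ± 0.09 and -0.07 ± 0.06 in the same comparisons. Faah in frontal cortex came to 10.08, 10.19 and 10.28 in congenic and 10.01, 10.09 and 10.18 in NP rats, a difference of 0.10 ± 0.05 (adjusted p = 0.795) with its other probe set at 0.07 ± 0.05. Daglb was between -0.11 in hippocampus and 0.12 in accumbens by its leading probe set, and the accumbens value moved to -0.01 without the 2 accumbens arrays that stood apart.

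**Figure D5:**
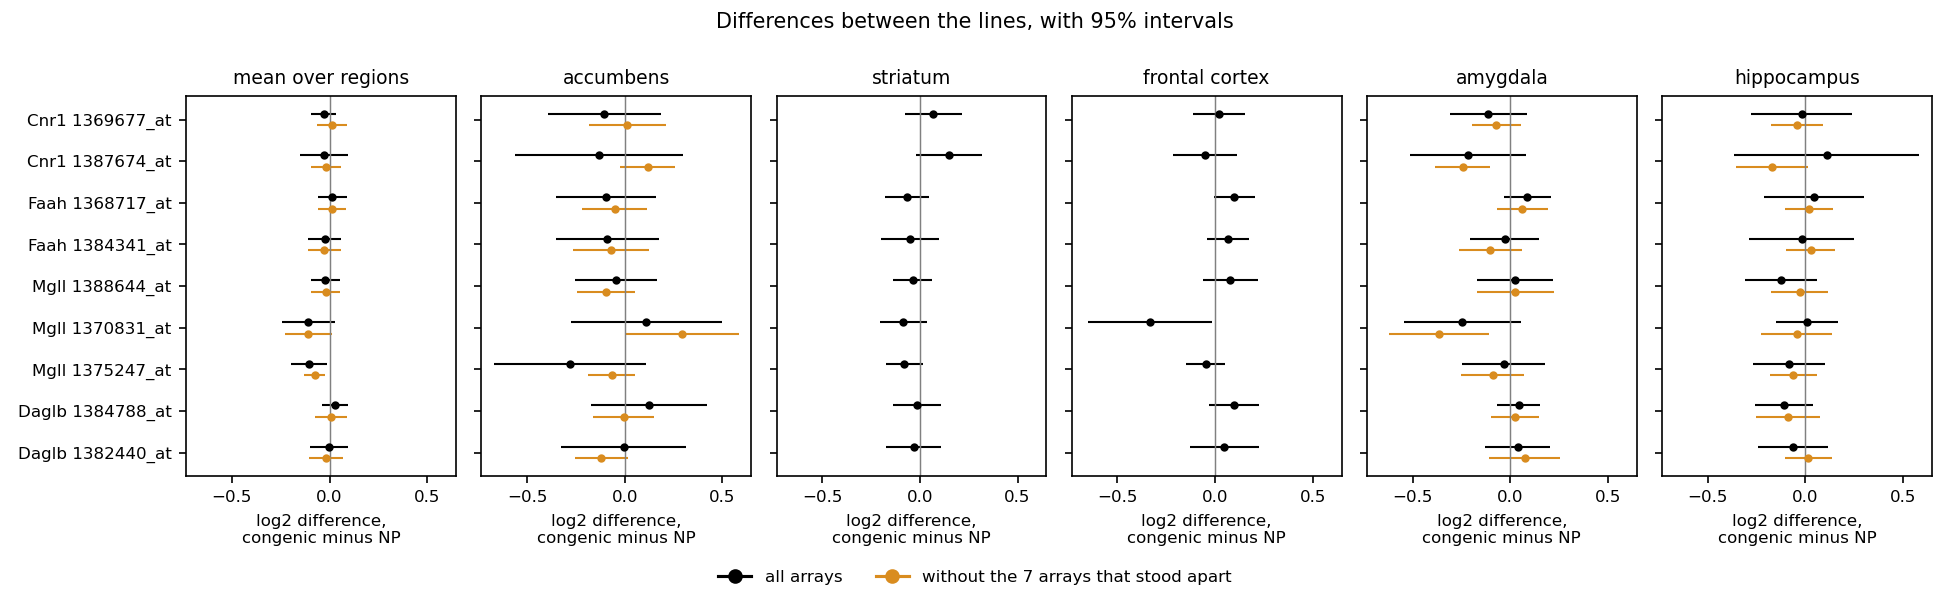
Difference between the lines, congenic minus NP (x axis, log2, with 95% intervals), for the 9 probe sets tested (rows), in the mean over regions and in each region, with all arrays and, where a region has such arrays, without those that stood apart. The differences with all arrays lie between -0.33 and 0.15, and those in the mean over regions between -0.11 and 0.03.

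Whether the line difference varied between regions was tested as an interaction, with the animal as a block. Of the 9 members 0 were called by limma's F test, 0 had an unadjusted p under 0.05, and 0% of all probe sets were called, 726 of them with an unadjusted p under 0.05 (adjusted p = 0.998 for each member). Without the 7 arrays 0.0107% of all were called and again 0 of 9 members. The lowest values were then those of Mgll 1370831_at (unadjusted p = 0.00739, adjusted p = 0.286) and Cnr1 1387674_at (unadjusted p = 0.00997, adjusted p = 0.303). The further pathway genes had 0 of 23 called between the lines in every comparison by limma. Their lowest adjusted p with all arrays was that of Grm5 in amygdala, lower in congenic rats (-0.45 ± 0.12, adjusted p = 0.402). Over the 5 regions and their mean, 5 comparisons of these 23 genes had an unadjusted p under 0.05 by limma. Between 366 and 1188 of all 18625 probe sets had one in a single comparison. Without the arrays that stood apart Grm5 came to -0.48 ± 0.12 in amygdala (adjusted p = 0.183) and to 0.52 ± 0.17, the other direction, in accumbens (adjusted p = 0.727).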

How the data were processed

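The deposited table holds log2 values of 60 arrays, 1 column an array. The authors' background correction, normalization and genome build are not given in the sources used here. Of 31042 probe sets, 57 array controls not counted, 20826 carried 1 symbol. The 18625 at or above the 40th percentile of mean signal were tested with limma 3.58.1 (R 4.3.3), 2-sided, with Benjamini-Hochberg adjustment over all 18625, and called at an adjusted p under 0.05. Lines were compared over animals (6 congenic, 6 NP), in the mean of each animal's 5 arrays and in each region. Regions and the interaction were fitted on 60 arrays with the animal as a block. Arrays of 1 animal share a number in the labels, and their deviations correlated at a mean of 0.0139 (120 pairs), against -0.00627 for different animals of a line (600 pairs).

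Arrays stood apart if their median correlation with their region was under 0.98, or their correlation with its profile (each region's median minus the mean of the regions) under 0.5. The members and lists were chosen with earlier results of these data known. The text names every member, pathway genes called in a line comparison or among the 3 highest and 3 lowest called per region, and the 3 most alike genes. Fits were also run on simulated data with independent noise for each array. That noise held no animal effect and no array that stood apart, so it cannot test how the fits handle these. Figures used Python 3.11.15, matplotlib 3.10.9, numpy 2.4.6 and pandas 2.3.3. Alternatives covered normalization, filter, prior, block, arrays that stood apart and each animal left out.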

Additional observations from a re-analysis of the deposited data

Results flagged for a closer look

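In 18 of 100 groups of 6 arrays (10 probe sets, 5 regions, 2 lines), the highest or lowest log2 value lay far from the other 5 by Dixon's 95% limit. Chance gives about 1 in 20 such groups, here 5. Of these, 14 came from the arrays that stood apart. On the accumbens array of congenic animal 9 this was Cnr1 1387674_at at 7.76 (lowest, nearest 8.94), Daglb 1382440_at at 9.24 (highest, nearest 8.53), Daglb 1384788_at at 9.57 (highest, nearest 8.93), Mgll 1370831_at at 8.63 (lowest, nearest 9.21) and Mgll 1375247_at at 7.70 (lowest, nearest 8.74). On the amygdala array of NP animal 6 this was Cnr1 1387674_at at 9.61 (highest, nearest 9.19). On the amygdala array of congenic animal 3 this was Cnr1 1387674_at at 9.53 (highest, nearest 8.97) and Mgll 1375247_at at 9.54 (highest, nearest 9.16). On the hippocampus array of NP animal 8 this was Cnr1 1369677_at at 12.42 (lowest, nearest 12.87) and Faah 1368717_at at 9.63 (lowest, nearest 10.14). On the hippocampus array of NP animal 11 this was Daglb 1382440_at at 9.23 (highest, nearest 8.80). On the hippocampus array of congenic animal 3 this was Cnr1 1369677_at at 12.53 (lowest, nearest 12.88), Faah 1384341_at at 9.09 (lowest, nearest 9.46) and Mgll 1375247_at at 9.10 (lowest, nearest 9.44). The other 4 came from other arrays: Cnr1 1387674_at in frontal cortex, NP animal 7, at 9.12 (highest, nearest 8.93), Daglb 1384788_at in accumbens, NP animal 7, at 8.98 (highest, nearest 8.80), Mgll 1375355_at in frontal cortex, NP animal 12, at 7.51 (lowest, nearest 7.66) and Mgll 1388644_at in frontal cortex, NP animal 8, at 11.76 (highest, nearest 11.63). Results that rest on the arrays that stood apart are given with and without them above. The interaction of line and region flagged no member.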

How the results depend on the processing

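The counts of members called between the lines and in the interaction were 0 under every alternative run: quantile normalization, median centring, no filter, a filter at the 60th percentile, a trended robust prior, other blocks, without the arrays that stood apart, and each animal left out. Region counts moved by at most 1.5 times: with single animals left out, 4 to 6 for amygdala (6 as reported), 6 to 8 for frontal cortex (7), 4 to 6 for hippocampus (5), 6 to 7 for striatum (7), 9 for accumbens (9) and 9 to 10 for neighbouring pairs (9). Under the other alternatives these were 4 to 8, 6 to 8, 4 to 7, 6 to 8, 8 to 10 and 9 to 10. The number of members tested changed too. With no filter 1375355_at of Mgll entered, and the filter at the 60th percentile dropped 1382440_at of Daglb. The fit with no replicate block gave the same counts as the paired fit (6, 7, 5, 7 and 9), so the pairing of regions by animal changed no count. Fits of the lines on all arrays with a random replicate block gave 0 as well. Of 310 region differences of single probe sets, 6 lost and 6 gained their call, and of 540 with an animal left out 25 lost and 4 gained it; none reversed while called. Of the line differences, 11 of 396 and 50 of 648 changed sign while not called in either setting, and 3 and 2 moved beyond the spread between animals: without the arrays that stood apart Mgll 1375247_at in accumbens came to -0.07, Daglb 1384788_at in accumbens to -0.01 and Cnr1 1387674_at in hippocampus to -0.17. Median centring ended the amygdala calls of Faah 1384341_at (adjusted p = 0.0605) and Daglb 1384788_at (adjusted p = 0.0563). The cause was not tested. Precision is set by 6 animals per line and 12 per region, and arrays give no read depth.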
